A study of Mus musculus with 2 samples.

Results

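The cells described here passed a sort for hepatocytes and are those richest in RNA of liver sinusoidal endothelial genes. All of them also held hepatocyte RNA, some held Kupffer or stellate RNA, and doublets were not removed. They were found by their RNA: among cells with 1000 to 4500 detected genes and at most 5% mitochondrial counts, the summed counts of 6 endothelial genes (Pecam1, Stab2, Clec4g, Kdr, Ptprb and Egfl7) were divided by the total counts of each cell, and the 400 cells with the highest value were taken. These 400 members are part of 11927 eligible cells and of 39559 barcodes in all. The 6 genes chose the members, so their levels describe the choice and are no result.

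All cells came from livers of male p16-Tom mice on a C57BL/6 background, heterozygous for p16-CreERT2 and for R26-CAG-LSL-tdTomato-WPRE, which had received carbon tetrachloride (CCl4) for 4 weeks and tamoxifen. Tamoxifen activates the Cre recombinase made from the p16Ink4a promoter, which is not restricted to hepatocytes, and the recombined reporter then makes the red protein tdTomato permanently. Fixed and dissociated tissue was sorted on a nuclear and a mitochondrial dye into Tom- (p16low) and Tom+ (p16high) fractions, and each fraction gave 1 library, with no vehicle-treated library analysed here. The number of mice, their age and which cell came from which mouse are not given in the sources used here, so each group is 1 sample, there is no test between the groups, and every interval below is a 95% interval for counting error only.

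Sinusoidal endothelial cells line the liver capillaries. They lack a continuous basement membrane, are perforated by fenestrae, and clear macromolecules from blood through scavenger receptors such as the stabilins, the mannose receptor and the Fc receptor FcgRIIb. They also release paracrine signals to hepatocytes: endothelial cells near the central vein make Wnt ligands and R-spondin 3, which sustain the pericentral programme of neighbouring hepatocytes, and BMP ligands from the sinusoid set hepatocyte hepcidin expression.

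The Tom- library gave 194 members and the Tom+ library 206. The cell with the highest value had 50 counts of the 6 genes among 3096 unique molecular identifiers (UMIs, 1 for each captured probe pair). The cells at ranks 399 and 400 held 0.7013% and 0.7001%, and those just outside, at ranks 401 and 402, held 0.7000% and 0.6999%. The cut therefore fell on a continuum, and cells at ranks 401 to 500 still held 0.654% of their UMIs in pan-endothelial genes that the ranking had not used, against 0.771% at ranks 301 to 400 and 0.0177% beyond rank 1600. The other eligible cells, used for comparison below, thus include cells with endothelial RNA.

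Members were shallow. They held 1209116 UMIs in total, 618468 in the Tom- and 590648 in the Tom+ library, with a median of 2920.5 and 2766 UMIs and of 1798.5 and 1749.5 genes per cell. The other 11527 eligible cells, mostly hepatocytes, had a median of 10465 UMIs, and 1 UMI in the summed members therefore weighs far more than in the comparison. A gene at 0 UMIs in the members of a library may lie anywhere up to 4.85 CPM (counts per 1000000 UMIs) in Tom- and 5.08 CPM in Tom+, the level of 3 counts. The libraries shared 503 barcodes. Of the members 9 carried a barcode found in both libraries, and no barcode belonged to 2 members.

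Genes outside the ranking gave the same identity. All 13 measured genes of a sinusoidal endothelial list and all 22 of a pan-endothelial list were at least 2-fold higher in the members than in other eligible cells, within each library, while 33.4% of all 9797 genes compared passed that limit. The median log2 difference was 4.78 for the sinusoidal and 4.90 for the pan-endothelial list, beside 0.55 over all genes compared. The single gene far below the others was S1pr1, a sphingosine-1-phosphate receptor, at 1.56. Because the members were chosen on endothelial RNA, these counts describe the cells and test nothing.

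The scavenger receptor Stab1 was at 1082 CPM (1001 to 1167) in Tom- members and 1161 (1076 to 1252) in Tom+ members, against 40.4 and 37.7 CPM in other eligible cells. Lyve1, which encodes a hyaluronan receptor, was at 815 (745 to 889) and 985 (907 to 1069) against 35.5 and 24.9. Dnase1l3, a secreted nuclease, was at 2100.3 (1988 to 2218) and 2314 (2193 to 2440.4) against 82.3 and 65.7. Both member groups stood far above both comparison groups for each of these genes. Cdh5, the adherens junction protein VE-cadherin, was at 205 (171 to 244) and 237 (199 to 280) against 12.4 and 11.9. Mrc1, the mannose receptor, was at 1334 and 1431 CPM in members but also at 806 and 856 in the 400 eligible cells richest in Kupffer cell genes, so it does not separate these cell types. At an equal depth of 2000 UMIs a cell, Stab1 was detected in 81.4% (75.1 to 86.7) of Tom- and 89.9% (84.7 to 93.8) of Tom+ members. The corresponding shares of other eligible cells were 8.61% and 8.53%, and without thinning the 4 shares were 88.7%, 92.7%, 22.8% and 18.3%.

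**Figure D1:**
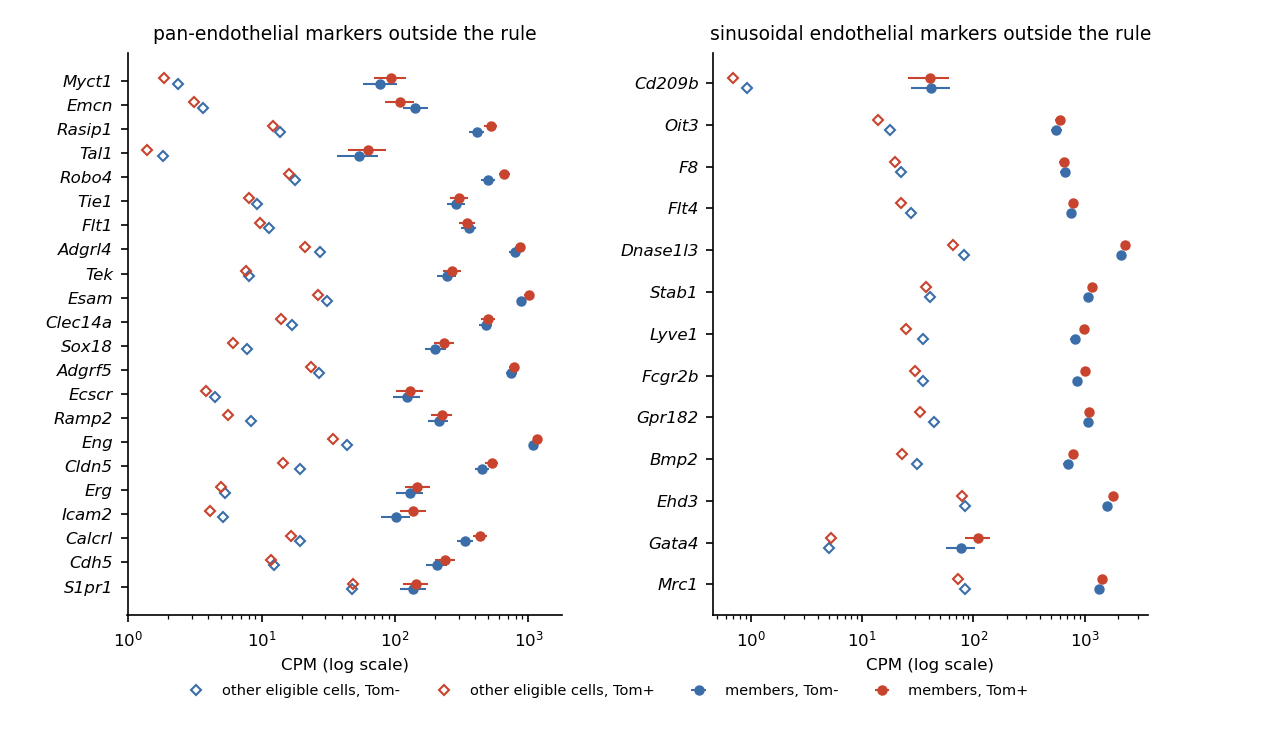
Levels (CPM, log axis) of the pan-endothelial genes (left) and sinusoidal endothelial genes (right) that the ranking did not use, as filled circles with 95% counting intervals for the 194 Tom- and 206 Tom+ members and as open diamonds for the other eligible cells of each library. In every gene the members of both libraries lie to the right of the other eligible cells, with the narrowest gap in S1pr1 (137 and 144 CPM against 47.4 and 48.7).

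Among genes at 50 CPM or more the largest difference was that of Slc26a10, an ion transporter family member at 225 CPM (189 to 265) in Tom- and 271 (231 to 316) in Tom+ members against 5.41 and 5.87 in other eligible cells (log2 5.49). Kit, the stem cell factor receptor, followed at 294 (253 to 340) and 381 (333 to 434) against 8.05 and 6.53 (log2 5.46). The protocadherin Fat4 (5.34), the ubiquitin ligase Hecw2 (5.27), the vascular gene Myct1 (5.26), the scaffold gene Shank3 (5.22), the glycosyltransferase Galnt18 (5.20) and the repressor Bcl6b (5.19) came next. Hspa12b (5.19), Fbxl7 (5.16), the cytochrome Cyp4b1 (5.16), the sialomucin Emcn (5.16), Myzap (5.15), B3gnt3 (5.13) and Btnl9 (5.13) completed the leading 15. All 15 were several-fold higher within each library, from a log2 difference of 4.93 upwards in Tom- and 4.95 upwards in Tom+. At the other end stood Gckr, the glucokinase regulator (log2 -1.87), the endothelial lipase gene Lipg (-1.85), Arhgap42 (-1.84), Ptprd (-1.78) and the pyrimidine-degrading enzyme Dpyd (-1.78). Over all genes compared, 3276 were at least 2-fold higher in members, 2777 of them in each library, and 843 (8.60%) were at least 2-fold lower, 460 of them in each library.

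The promoters of the leading genes were searched for short words bound by endothelial transcription factors, CAGGAAG and CCGGAAG for the ETS family and AGATAAG for the GATA family, on both strands, from 250 bases before to 50 bases after the RefSeq start site (GRCm38.p6, the mm10 build). Of the 100 genes with the largest difference 69 had such a window, as did 7739 of all 9797 genes compared. CAGGAAG stood in 12 leading windows (17.4%, against 12.5% of all), CCGGAAG in 2 (2.90%, against 19.0%) and AGATAAG in 5 (7.25%, against 1.87%). These counts are small, only some genes had a window, and a match is no evidence that a factor binds there. The sequences are the 250 bases before the start site of 4 genes whose RNA marked the members, with the matched word in capitals on whichever strand it lies. Emcn (chr3:137340828-137341077, plus strand) and Robo4 (chr9:37401722-37401971, plus strand), which encodes an endothelial guidance receptor, hold CAGGAAG, in Emcn as its reverse complement. Myct1 (chr10:5593478-5593727, plus strand) and Slc26a10 (chr10:127180583-127180832, minus strand) hold AGATAAG, in Slc26a10 as its reverse complement. The words begin at positions -174, -50, -61 and -237 from the start site in that order.
Emcn: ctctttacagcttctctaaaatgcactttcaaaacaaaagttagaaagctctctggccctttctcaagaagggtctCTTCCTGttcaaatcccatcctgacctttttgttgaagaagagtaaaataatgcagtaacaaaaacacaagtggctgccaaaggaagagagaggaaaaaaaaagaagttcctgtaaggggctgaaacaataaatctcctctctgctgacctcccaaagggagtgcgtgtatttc
Robo4: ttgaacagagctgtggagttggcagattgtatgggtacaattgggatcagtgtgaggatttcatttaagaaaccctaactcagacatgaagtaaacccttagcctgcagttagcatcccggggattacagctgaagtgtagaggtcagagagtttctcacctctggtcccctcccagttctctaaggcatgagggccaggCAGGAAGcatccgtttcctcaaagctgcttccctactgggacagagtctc
Myct1: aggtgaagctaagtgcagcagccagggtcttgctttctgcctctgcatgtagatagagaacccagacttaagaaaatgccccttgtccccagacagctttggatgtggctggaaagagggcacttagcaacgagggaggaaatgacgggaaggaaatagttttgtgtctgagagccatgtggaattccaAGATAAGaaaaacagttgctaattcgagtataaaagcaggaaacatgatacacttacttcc
Slc26a10: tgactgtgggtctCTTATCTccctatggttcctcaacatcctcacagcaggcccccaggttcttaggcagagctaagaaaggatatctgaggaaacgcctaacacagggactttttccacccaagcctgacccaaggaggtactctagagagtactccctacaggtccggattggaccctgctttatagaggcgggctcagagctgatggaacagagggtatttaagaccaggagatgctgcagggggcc

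Receptors for the vascular growth factors were high in members without exception. All 6 genes of the VEGF and angiopoietin receptor list outside the ranking were at least 2-fold higher in each library (median log2 4.95). Among all genes compared 33.4% were at least 2-fold higher in members. Flt4, the receptor for VEGF-C, was at 760 and 792 CPM against 27.3 and 22.3, and Tek and Tie1, the angiopoietin receptor and its partner, were 32.2-fold and 32.9-fold higher. Nrp1 and Nrp2, the VEGF co-receptors, were 16.2-fold and 19.0-fold higher.

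The clearance machinery was split. Of 16 scavenging and endocytosis genes outside the ranking, 9 were at least 2-fold higher, 1 was at least 2-fold lower and 6 lay between (median log2 2.49), beside 33.4% higher and 8.60% lower over all genes compared. The higher genes were mostly surface receptors and adaptors: besides Stab1, Lyve1 and Mrc1 they were Fcgr2b (857 and 1004 CPM against 35.5 and 29.9), Ehd3, a recycling protein (log2 4.34), Dab2, a clathrin adaptor (4.57), Cd36 (3.80), Msr1 (3.41) and the lysosomal protease Lgmn (1.56). General lysosomal genes sat near equality, with Lamp1 at -0.02, Lamp2 at 0.20, Ctsb at -0.03, Ctsd at 0.22 and Ctsl at 0.78. Scarb1, a lipoprotein receptor, was at 0.25. Lrp1, the large receptor of hepatocytes and macrophages, was at 330 and 301 CPM against 770 and 746 (log2 -1.27).

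Of 22 endothelial transcription factors compared, 21 were at least 2-fold higher in the members (median log2 4.18), beside 33.4% of all genes. The largest differences were those of Bcl6b (5.19), the haematopoietic and endothelial factor Tal1 (5.08), Sox17 (5.05) and the ETS factors Elk3 (4.94) and Erg (4.73). Gata4, which keeps sinusoidal endothelium from acquiring a continuous capillary programme, was at 77.6 CPM (57.2 to 103) in Tom- and 110.05 (84.9 to 140.3) in Tom+ members against 5.10 and 5.30. The flow-induced gene Klf2 was at 354 and 393 CPM against 24.2 and 20.9, and Maf was at 1686 and 1983 against 166 and 163. The exception was Hhex, a homeobox gene that hepatocytes also use, at 234 and 212 CPM in members against 246 and 245.

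Signals from endothelium to its neighbours formed a further group. Of 25 angiocrine ligands, several of which also stand in the zonation lists below, 20 were compared. In members 16 were at least 2-fold higher and 2 were at least 2-fold lower (median log2 3.35), beside 33.4% and 8.60% of all genes. Bmp2 was at 708 CPM (643 to 778) in Tom- and 794 (724 to 869) in Tom+ members against 31.0 and 23.0, and Bmp6 at 213 (179 to 253) and 266 (226 to 311) against 7.81 and 6.06. These BMP ligands, which act on hepatocyte hepcidin, were high in both libraries. Hgf, the hepatocyte mitogen, was at 331 (288 to 380) and 309.8 (267 to 358) against 30.3 and 35.0, yet it was higher still, at 684 and 871 CPM, in the 400 eligible cells richest in stellate and fibroblast genes. Igfbp7 was at 3022 and 3383 CPM and likewise stood at 2707 and 3406 CPM in those cells. Summed, the angiocrine list stood at 6955 CPM in members and at 7391 CPM in those cells. Ctgf, a matricellular protein gene, was at 634 and 901 CPM against 75.3 and 74.4, Inhbb, an activin subunit, was 20.8-fold and Pdgfb 9.93-fold higher. The ligands lower in members were Cxcl12 (146 and 122 CPM against 297 in each library) and Pdgfa (3 and 4 UMIs). Il6 had 1 UMI in 1 Tom- member.

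Receptors and targets of the BMP and TGF-beta pathway were mostly high. Of 13 genes, 10 stood 2-fold or more above other eligible cells and 1 stood 2-fold or more below them (median log2 2.36). The shares of all genes compared were 33.4% and 8.60%. The co-receptor Eng led at 4.78, ahead of the inhibitory Smad6 (3.96), the co-receptor Tgfbr3 (3.61), the ALK1 receptor gene Acvrl1 (2.90) and the target genes Id1 (2.77) and Id3 (2.74). Smad7 was at 2.24, while Tgfbr1 (0.28) and Id2 (-0.47) lay near the other cells and Smad9 was lower at 3 and 4 UMIs. In the Notch list 5 of 8 genes compared were at least 2-fold higher (median log2 2.10), beside 33.4% of all genes. They were the ligand Dll4 (380 and 405 CPM against 14.4 and 12.4), the receptor Notch1 (336 and 374 against 34.1 and 33.9), the feedback gene Nrarp (log2 4.22), the target Hes1 (2.82) and the nuclear effector Rbpj (1.37). Notch2 was at 19.4 and 32.2 CPM against 48.4 and 44.4, and Hey2 had no UMI in the members.

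**Figure D2:**
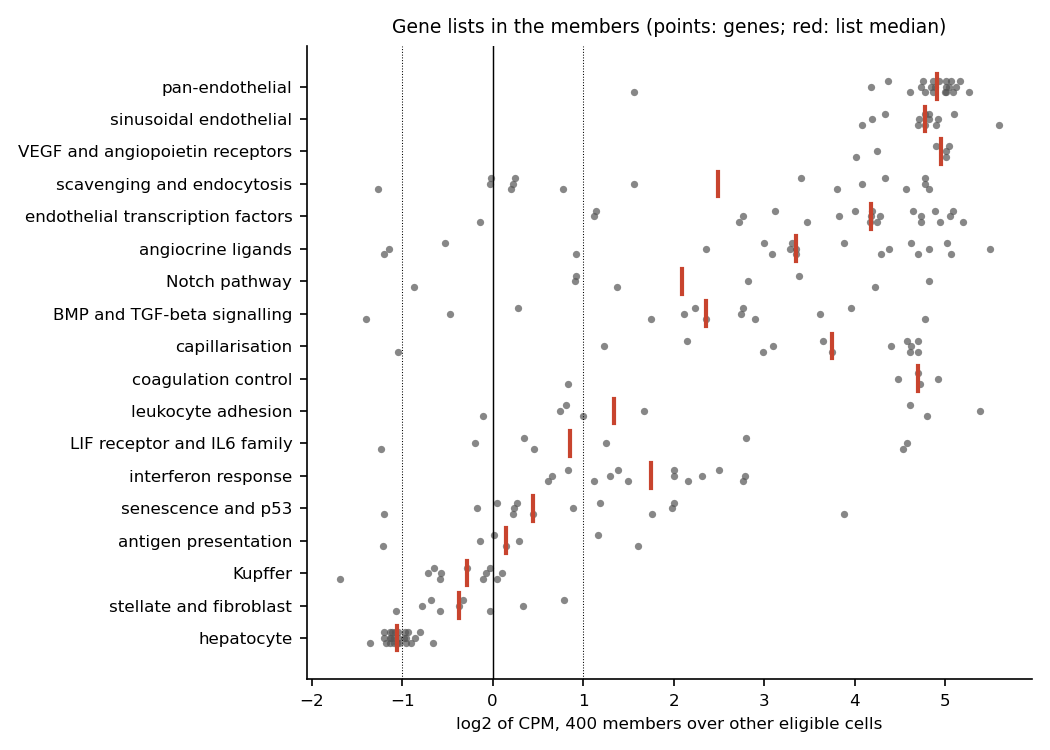
Log2 of the CPM of the 400 members over that of the other eligible cells, for each compared gene (grey point) of 18 gene lists, with the list median as a red bar and dotted lines at 2-fold. The pan-endothelial and sinusoidal lists have medians of 4.90 and 4.78, the Kupffer and stellate lists lie just under 0 (-0.28 and -0.37) and the hepatocyte list lies at -1.06.

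Genes typical of the portal side and of the central side of the sinusoid were both found in the members, whose position was not measured. All 7 genes of a pericentral endothelial list and all 7 of a periportal endothelial list were at least 2-fold higher than in other eligible cells in both libraries. The median log2 differences were 5.06 and 4.29. Over all genes compared 33.4% were at least 2-fold higher in members. Of the 400 members 298 had a UMI of the pericentral list, 384 had one of the periportal list and 282 had both. Over the members the shares of the 2 lists ran opposite, with a Spearman rho of -0.45 across 400 cells that share 2 libraries, a shallow depth and the same total in both shares, given as a description. At least 5 pericentral UMIs were found in 101 members and at least 20 periportal UMIs in 50, and the highest single cells held 48 and 50.

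Clustering of the members without the 6 ranking genes gave 6 groups, described here by their leading genes; the genes that set the groups are no finding. Cluster 2, with 81 cells (31 Tom- and 50 Tom+), was pericentral endothelial-like in its summed counts, though not in every cell. Its member at rank 364 held 0 pericentral and 21 periportal UMIs. All 7 pericentral genes were at least 1.5-fold higher there than in the remaining members, where 14.8% of the 9466 genes at 10 CPM or more over all members passed that limit, and the summed list reached 3252 CPM (3035 to 3481) against 633. Wnt9b, Rspo3, Cdh13 and Thbd were among the genes clustered on, so their part in this is no finding. Its leading genes were Wnt9b (223 CPM against 3.15), Vwf (204 against 6.29), Rspo3 (199.6 against 7.34), Cdh13 (153 against 8.39) and the LIM homeobox gene Lhx6 (117 against 7.34). Wnt9b was seen in 31 of its 81 cells and in 3 of the other members. Vwf, the von Willebrand factor of larger vessels, came from 13 cells, 1 of them with 15 UMIs. Thbd, the thrombin receptor thrombomodulin, was at 1205 CPM, Gja4, a connexin, at 626, Kit at 669 and Fabp4 at 466, and 7 of 12 large-vessel genes were at least 1.5-fold higher than in the remaining members. With Vwf among its 10 leading genes, the large-vessel list met the naming limits as well (2434 CPM against 1418). Cells of larger vessels were not set apart from sinusoidal ones in this cluster. Over all members, 7 of 9 large-vessel genes compared were at least 2-fold higher than in other eligible cells (median log2 4.39). The share of all genes past that limit was 33.4%.

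Cluster 1, with 115 cells (49 Tom- and 66 Tom+), held the periportal genes. The periportal list was at 5614 CPM (5368 to 5868) against 2154 in the remaining members, and 6 of its 7 genes were at least 1.5-fold higher, beside 10.9% of all genes. None of them was among the 10 leading genes, so the cluster was left without a name. It was led by Igha, whose 20 UMIs all came from 1 cell, then by Adgrg6 (97.4 CPM against 3.49), the proteoglycan Esm1 (859 against 70.9), the angiopoietin Angpt2 (60.1 against 8.14) and Slc45a4 (155 against 26.7). Across clusters 0 to 3, Ltbp4, a binding protein of latent TGF-beta, read 798, 2701, 744 and 938 CPM, and Efnb2, the arterial ephrin, read 86.4, 533, 106 and 307. Dll4 read 232, 736, 133 and 534 CPM and the scavenger receptor Msr1 206, 642, 70.5 and 445. In each of these the level in cluster 1 was the highest and that in cluster 2 was the lowest or near it. Wnt2 read 140.03, 8.59, 337 and 8.09 CPM in the same order, the reverse arrangement.

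The remaining clusters were given no zone name. Cluster 0 (120 cells, 64 Tom- and 56 Tom+) had weak leaders, Cers5, Zscan29, Shisa9, the clock output gene Dbp (71.5 CPM against 27.5) and Gtf3c4. Cluster 3 (50 cells, 34 Tom- and 16 Tom+) was led by Zfx, the lectin Cd209b (154 CPM against 28.6), Rdh13, Ggnbp1 and Kcne3, all on 19 UMIs or fewer. Its pericentral endothelial list was low, at 218 CPM against 1297 in the remaining members. Wnt9b and Rspo3 had no UMI there, nor in clusters 1 and 4. The upper limits of these zeros were 29.8, 10.6 and 52.6 CPM in clusters 3, 1 and 4, so they do not show absence. The periportal list of cluster 3 was at 2969 against 3174 and Dll4 at 534. Cluster 4 (17 cells, 10 Tom- and 7 Tom+) was cycling-like: Top2a, Ube2c, Nusap1, Anln and Cenpf led it, Mki67 was at 671 CPM, and the cycling list was at 3553 CPM (3125 to 4023) against 159, with all 13 genes at least 1.5-fold higher, beside 29.3% of all genes. Its pericentral list was at 514 CPM against 1228. With these cells, 10 of 12 cycling genes compared were at least 2-fold higher in all members than in other eligible cells (median log2 2.48). That limit was passed by 33.4% of all genes compared. The directions of cycling genes, however, turned with the choice of cells. Top2a turned to -1.47 once the 100 members with the most UMIs were left out, and with 200 members Mki67 turned to -0.40, Birc5 to -2.19 and Ccnb2 to -0.07. Cluster 5 (17 cells, 6 Tom- and 11 Tom+) was led by Col1a1, Col1a2, Sod3, Colec11 and Tgfbi. It carried the Kupffer list at 6854 CPM against 607 in the remaining members and the stellate and fibroblast list at 3580 against 201, while its sinusoidal endothelial list was at 10341 against 12318, and it was given no name. Of the 17 cells 9 held at least 10 Kupffer UMIs, 9 held at least 10 stellate UMIs, and 3 held both. A single cell held 107 Kupffer and 93 stellate UMIs. The share of all genes at least 1.5-fold higher than in the remaining members was 8.72% in cluster 0, 17.6% in cluster 3 and 22.0% in cluster 5. Median UMIs were 3946 and 3939 in clusters 4 and 5 and 2397.5 to 3005 in the others.

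**Figure D3:**
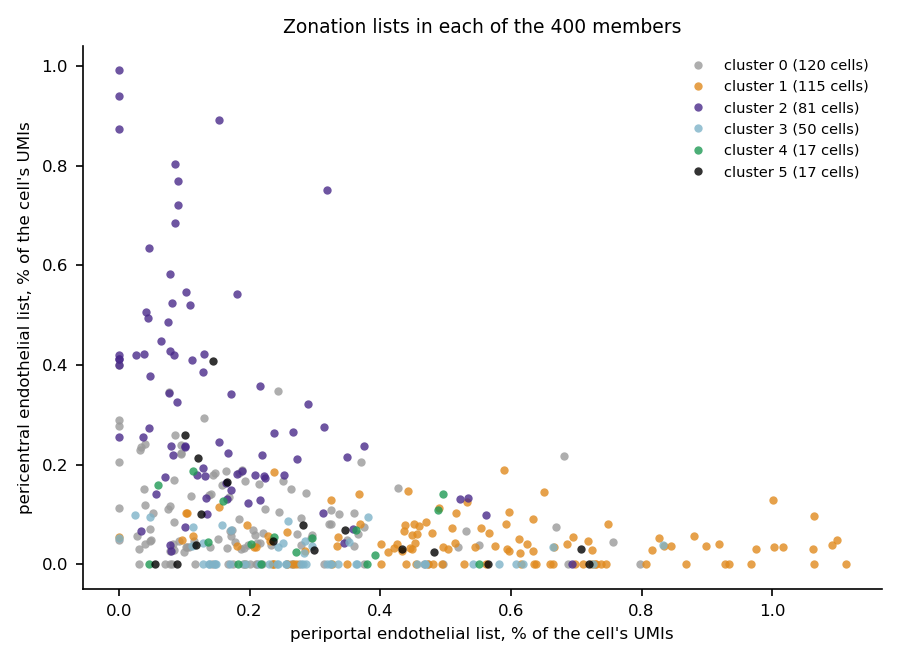
Each of the 400 members by the percent of its UMIs in the periportal (horizontal axis) and pericentral (vertical axis) endothelial list, coloured by cluster. The highest cells of the pericentral list belong to cluster 2 (81 cells) and those of the periportal list to cluster 1 (115 cells). Few members are high in both lists. The clusters overlap: the cluster 2 member at rank 364 held 0 pericentral and 21 periportal UMIs, and the cluster 0 member at rank 51 held 11 and 0.

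Genes tied to the loss of the sinusoidal phenotype in fibrosis, a process called capillarisation, were present at several levels. Of 13 such genes compared, 12 were at least 2-fold higher in members than in other eligible cells and 1 at least 2-fold lower (median log2 3.75). Over all genes compared these shares were 33.4% and 8.60%. Cd34 was at 43.7 and 40.6 CPM against 2.08 and 1.86 and was seen in 44 members, and Plvap, the diaphragm protein, was at 56.6 and 69.4 against 14.6 and 13.6 and was seen in 54. The basement membrane genes Col4a1 (1919 and 2267 CPM), Col4a2 (674 and 803), Lama4 (log2 4.69) and Hspg2 (4.58) were high, though Col4a1 was also at 2248 and 2603 CPM in the cells richest in stellate genes. Fn1, which hepatocytes secrete, was lower (1924 and 1708 CPM against 3789 and 3631). No library from untreated liver was analysed here, so these levels cannot be set against an uninjured state. In the coagulation list 4 of 5 genes compared were at least 2-fold higher (median log2 4.70), beside 33.4% of all genes. They were the factor VIII gene F8 (663 and 654 CPM against 22.6 and 19.6), Thbd (291 and 403 against 16.1 and 13.9), Tfpi, an inhibitor of the tissue factor pathway (364 and 376 against 14.6 and 12.8), and Vwf.

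The LIF receptor family, which the study examined between hepatocytes and stellate cells, was read for its receptors and ligands. The study also plotted Lifr and Il6st by cell type in its stellate cell data, endothelial cells among them. Lifr was at 1449 CPM (1355 to 1547) in Tom- and 1437 (1342 to 1537) in Tom+ members against 1080.4 and 983, a log2 difference of 0.45. Its partner Il6st, the signal-transducing chain gp130, was at 852 (781 to 928) and 951 (874 to 1034) against 126 and 137. The oncostatin M receptor Osmr was at 183 and 173 CPM against 7.61 and 7.95, and Cntfr at 30.7 and 25.4 against 1.02 and 1.69. The receptor chains Il6st, Osmr and Cntfr were thus far higher in the members of both libraries, whereas Il6ra was lower at 48.5 and 57.6 against 123 and 132. Of 8 genes of this list compared, 4 reached 2-fold above other eligible cells and 1 lay 2-fold below (median log2 0.85), beside 33.4% and 8.60% of all genes compared and their median of 0.55. Lif, Osm and Il11 had no UMI in the members, and the cardiotrophin gene Ctf1 had 4 in Tom- and 1 in Tom+ members.

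Cell cycle inhibitors and p53 targets were read for senescence. Cdkn2a, the gene of p16Ink4a, had 3 UMIs in Tom- members (4.85 CPM, 1.00 to 14.2) and 7 in Tom+ members (11.9 CPM, 4.76 to 24.4), in 8 members in all, against 0.850 and 0.729 CPM in other eligible cells. The study cautions, for its human data, that CDKN2A encodes more than p16Ink4a, so these counts are not read as p16Ink4a alone. A separate custom feature with p16 in its name, whose target is not given in the sources used here, had 1 and 3 UMIs. The Tom+ to Tom- log2 ratio of Cdkn2a was 1.29 with an interval from -0.84 to 3.87, and no difference between the libraries was detectable at this depth. Cdkn1a (p21) was at 87.3 CPM (65.6 to 114) and 107 (82.0 to 136.5), close to the 99.4 and 77.5 of other eligible cells. Of 13 genes of the senescence and p53 list compared, 5 were at least 2-fold higher in members (Igfbp7, Glb1, Cdkn2d, Lmnb1 and Trp53) and 1, Gdf15, at least 2-fold lower (median log2 0.45), a count near the 33.4% of all genes compared and a median under their 0.55. Lmnb1, the lamin that is typically lost in senescent cells, was at 51.7 and 32.2 CPM against 12.3 and 13.4.

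Interferon response genes were higher in members, at least 2-fold in 11 of 14 (median log2 1.75), led by Oasl2 (226 and 249 CPM against 35.4 and 31.5), Ifit2 and Gbp7. The same genes were not particular to them: Oasl2 was at 268 and 329.6 CPM in the cells richest in Kupffer genes, and Irf7 was at 319 and 273 in members and 971 and 943 there. Of 7 antigen presentation genes compared, 2 were at least 2-fold higher (H2-D1 and Cd274) and 1, the class II gene H2-Ab1, lower on 7 and 3 UMIs (median log2 0.15; H2-Ab1 was at 0.65 with 2000 to 4500 genes and at 0.18 with 1000 to 10000 genes and at most 100000 UMIs). Leukocyte adhesion genes were at least 2-fold higher in 4 of 8 (median log2 1.34), namely Icam2, Jam2, Cd47 and Selp, the last on 13 UMIs. Sele had no UMI. Immediate early genes showed 2 of 11 at least 2-fold higher, Nr4a1 and Klf6 (median log2 0.32), and clock genes 2 of 14, Dbp and Per2, with Nfil3 and Npas2 at least 2-fold lower (median log2 0.11). Beside the 33.4% of all genes compared that passed 2-fold higher, around a median of 0.55, the antigen presentation, immediate early and clock lists lay lower on both measures and the adhesion list higher.

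Markers of other cells in the members were few but not absent. Of 12 Kupffer genes none was at 0 over all members. None was 2-fold higher and 1 of 11 compared, Adgre1, was at least 2-fold lower (median log2 -0.28), beside 8.60% of all genes. Adgre1 stood, however, at 0.76 when cells with 2000 to 4500 genes were ranked and at 0.03 with 800 members. The summed list had 0 UMIs in 126 members, at least 5 in 45 (11.25%) and at least 10 in 17, with 107 in the highest cell. Its level was 912 CPM in Tom- and 1082 in Tom+ members, against 1206 and 1036 in other eligible cells and 23573 and 23433 CPM in the cells richest in it. The stellate and fibroblast list had 0 UMIs in 238 members and at least 5 in 15 (3.75%), with Acta2 at 0, and its median log2 difference was -0.37 over 9 genes compared, of which 1, Col1a1, was at least 2-fold lower (1.30 with 2000 to 4500 genes, 0.43 with 800 members, and 0.44 with 1000 to 10000 genes and at most 100000 UMIs). Leukocyte genes other than those of Kupffer cells had 0 UMIs in 382 members. Ptprc, the 1 gene of that list compared, was at least 2-fold lower and was detected in 0.532% and 1.06% of members at 2000 UMIs against 6.18% and 6.84% of other eligible cells. The log2 difference of Ptprc turned to 0.94 with 2000 to 4500 genes and to 0.48 with 1000 to 10000 genes and at most 100000 UMIs. Cholangiocyte genes had 0 UMIs in 395 members, with Krt19 at 0. Of 4 lymphatic genes Pdpn, Ccl21a and Mmrn1 had no UMI, and Prox1, which hepatocytes also express, was at 50.1 and 44.0 CPM against 105 and 128. Of the members, 2 were also among the 400 richest in Kupffer genes and 2 among the 400 richest in stellate genes.

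Hepatocyte RNA was a large part of every member. Alb was detected in all 400, and 25 hepatocyte genes made up 11.7% of the UMIs of Tom- and 9.90% of those of Tom+ members, against 22.9% and 21.4% in other eligible cells. Over cells the share ran from 4.96% to 18.9% with a median of 10.7%. All 25 genes were lower in members, 16 of them at least 2-fold (median log2 -1.06), beside 8.60% of all genes compared. The ratios of the 25 genes were narrowly spread, from 0.430 to 0.774 in Tom- and from 0.380 to 0.533 in Tom+. The cells richest in Kupffer genes held a similar 12.1%. Within the members the sinusoidal endothelial share and the hepatocyte share ran opposite (Spearman rho -0.43 across 400 cells that share libraries, depth and the total of both shares).

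Among hepatocyte zonation genes, the periportal list was at least 2-fold lower in 8 of 9 genes (median log2 -1.21), beside 8.60% of all genes. The pericentral list passed that limit in 3 of 8 genes (median -0.95). Glul, the glutamine synthetase of the innermost pericentral hepatocytes, departed from the rest: it was at 82.5 CPM (61.4 to 108) in Tom- and 137 (109 to 170.4) in Tom+ members against 50.3 and 121 in other eligible cells, a ratio of 1.64 and 1.13, where the whole pericentral list had ratios of 0.505 and 0.429. What share of the members' Glul came from hepatocyte RNA was not tested.

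The Tom+ library supplied 51.5% (46.5 to 56.5) of the members but 27.3% of the eligible cells. Members were 2.24% (1.94 to 2.57) of the eligible cells of the Tom- and 6.33% (5.52 to 7.23) of those of the Tom+ library. This difference changed with the range of detected genes allowed. The range used held 37.4% of Tom- and 19.9% of Tom+ barcodes. With 2000 to 4500 genes instead, the 400 highest cells came to 28.8% from Tom+, 4.14% of the Tom- and 4.87% of the Tom+ cells. Those 400 cells were also a different mix, with more hepatocyte, Kupffer and stellate RNA, as given in the section on processing. The cause of the smaller difference was not tested. With 1000 to 10000 genes and at most 100000 UMIs the shares were 0.884% and 1.44%. The 400 cells richest in Kupffer and in stellate genes came to 33.0% and 34.2% from Tom+. These cells passed a sort gated for hepatocytes, so no share here measures how many endothelial cells the livers held or how many were tagged.

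Few genes differed 2-fold between Tom+ and Tom- members. Of 8579 genes compared, 143 (1.67%) stood 2-fold or more above and 118 (1.38%) 2-fold or more below the Tom- members, around a median log2 ratio of 0.07, and among the 5224 genes at 50 CPM or more the numbers were 28 and 26. With median-of-ratios scaling the split turned, to 106 above and 144 below. None of the 35 endothelial genes outside the ranking was 2-fold different (median log2 0.14), but 9 had an interval that left out equality, all 9 higher in Tom+ members. Over all 8579 genes that interval lay above equality in 4.62% and below it in 3.44%. Summed, the pan-endothelial list was at 7949 CPM (7728 to 8174) in Tom- and 8912 (8673 to 9156) in Tom+ members, and the sinusoidal list at 11655 (11387 to 11927) and 12761 (12474 to 13052). The hepatocyte list moved the other way, from 11.7% of UMIs in Tom- to 9.90% in Tom+ members, and its part in these differences was not tested. The largest ratios were those of the nuclear export factor Xpo4 (8 and 31 UMIs, log2 2.02, interval 0.87 to 3.35), B3gntl1 (1.70), Fam133b (1.56), Ncoa7 (1.43) and Hpf1 (1.39). The smallest were those of coagulation factor F5 (-1.39), the tubulin-binding Stmn1 (-1.39), the lipid enzyme Lpcat3 (-1.37, but 0.25 with 2000 to 4500 genes), the growth factor Vegfb (-1.36) and Acot13 (-1.31). Each of these rested on 30 to 77 UMIs in its higher library and was picked for its size.

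Hepatocyte zonation genes differed between the member groups in the direction seen in other eligible cells. Periportal hepatocyte genes were lower in Tom+ than in Tom- members (median log2 -0.76), with Hal at 222 and 112 CPM, Gls2 at 118 and 55.9, Cyp2f2 at 112 and 45.7 and Pck1 at 2796 and 1852 in Tom- and Tom+ members. Pericentral hepatocyte genes were higher (median 0.63), with Oat at 37.2 and 94.8 CPM and Cyp2e1 at 517 and 801. In other eligible cells the ratios of these 6 genes had the same signs, at -0.58 for Hal, -0.41 for Gls2, -0.32 for Cyp2f2, -0.40 for Pck1, 1.38 for Oat and 0.80 for Cyp2e1 on the log2 scale.

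The endothelial zonation genes were compared between the libraries in the same way. Summed, the pericentral endothelial list was at 1054 CPM (975 to 1138) in Tom- and 1326 (1234 to 1422) in Tom+ members, and the periportal list at 2931 (2798 to 3070) and 3384 (3238 to 3536). The pan-endothelial and sinusoidal lists were higher in Tom+ members as well, as given above. By gene, Rspo3 had 21 and 37 UMIs (34.0 CPM, 21.0 to 51.9, and 62.6 CPM, 44.1 to 86.3), a log2 ratio of 0.88 (0.07 to 1.73). Wnt9b had 22 and 38 UMIs (35.6 CPM, 22.3 to 53.9, and 64.3 CPM, 45.5 to 88.3), a ratio of 0.85 (0.06 to 1.68). Wnt2 was level at 121 (95.4 to 152) and 130.4 (103 to 163) CPM, a ratio of 0.10 (-0.37 to 0.58). Thbd had a ratio of 0.47 (0.18 to 0.76) and Kit of 0.37 (0.08 to 0.66). None of the 7 genes passed 2-fold, Rspo3 came from 21 members in all, and with 1 library per group the spread between animals is unknown.

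Cycling genes had a median log2 ratio of -0.59. Ccna2 had 21 UMIs in Tom- and 4 in Tom+ members (log2 -2.33, -4.33 to -0.76), Top2a 22 and 9 (-1.22, -2.53 to -0.05), and Mki67 34 and 17 (-0.93, -1.87 to -0.05), and 3 of 9 compared genes of the list (Ccna2, Top2a and Ube2c) were at least 2-fold lower in Tom+ members, beside 1.38% of all genes. Most of these counts came from the 17 cells of cluster 4 (31 of 31 UMIs of Top2a, 47 of 51 of Mki67), and with 200 members the ratio turned to 0.84 for Top2a, 0.10 for Ccna2 and 1.94 for Ube2c, that of Ube2c also to 0.05 when Ptprb was left out of the ranking. Among immediate early genes Fos (30 and 8 UMIs, -1.84) and Nr4a1 (26 and 11, -1.17) were at least 2-fold lower in Tom+ members, and with 2000 to 4500 genes both ratios turned positive (0.07 and 0.28). Of the angiocrine ligands Ctgf had a ratio of 0.51 (0.32 to 0.70), from 158 members with a UMI, and none passed 2-fold.

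**Figure D4:**
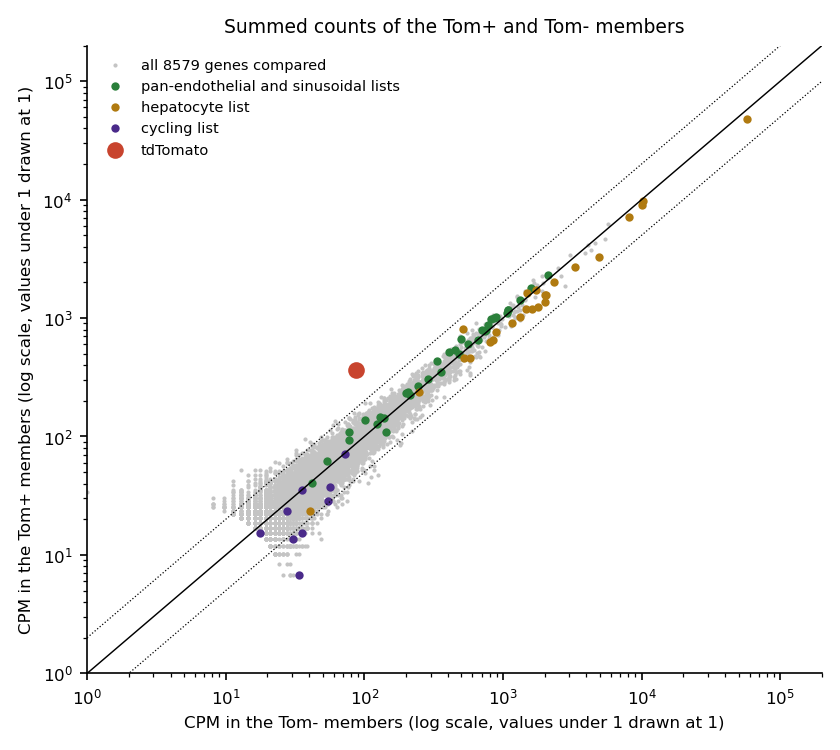
CPM of the 206 Tom+ members (vertical axis) against the 194 Tom- members (horizontal axis) on log axes, with all 8579 compared genes in grey, the endothelial, hepatocyte and cycling lists in colour, the line of equality and dotted lines at 2-fold. The endothelial genes lie along the line of equality, tdTomato lies above the upper dotted line, and 3 cycling genes lie below the lower one.

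The reporter was measured last. tdTomato was at 87.3 CPM (65.6 to 114) in Tom- members, from 54 UMIs, and at 362 CPM (315 to 414) in Tom+ members, from 214 UMIs, a log2 ratio of 2.05 (1.62 to 2.51). The Tom+ members were thus above the Tom- members, in the direction of the sort. In other eligible cells the levels were 112 and 926 CPM (ratio 3.04) and in cells with over 4500 genes 67.4 and 754 CPM (3.48), so the separation was smaller in the members. It was about as small in the cells richest in Kupffer genes, at 66.3 and 286 CPM (2.11), and in stellate genes, at 86.6 and 321 CPM (1.89).

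By cell, 88 of 206 Tom+ members had no tdTomato UMI, 61 had 1 and the highest had 11, while 147 of 194 Tom- members had none and the highest had 3. At 2000 UMIs a cell tdTomato was detected in 14.4% (9.68 to 20.2) of Tom- and 49.5% (42.1 to 56.8) of Tom+ members, against 18.8% and 71.8% of other eligible cells. Cells below that depth, 6 and 18 members and 327 and 197 others, were left out, and without thinning the shares were 24.2%, 57.3%, 57.8% and 88.4%. The share in Tom- members lay at or below that in other Tom- cells, and no expression by the members is read from it. The level in Tom+ members was 0.391 times that of other Tom+ cells, where the hepatocyte list stood at 0.462 times, and in the Tom- library these ratios were 0.777 and 0.512. Over 4 equal groups of the Tom+ members ordered from the lowest to the highest hepatocyte share, tdTomato read 441, 265, 359 and 374 CPM, in no order. How much of the reporter RNA in the members was their own and how much was hepatocyte RNA was not tested.

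**Figure D5:**
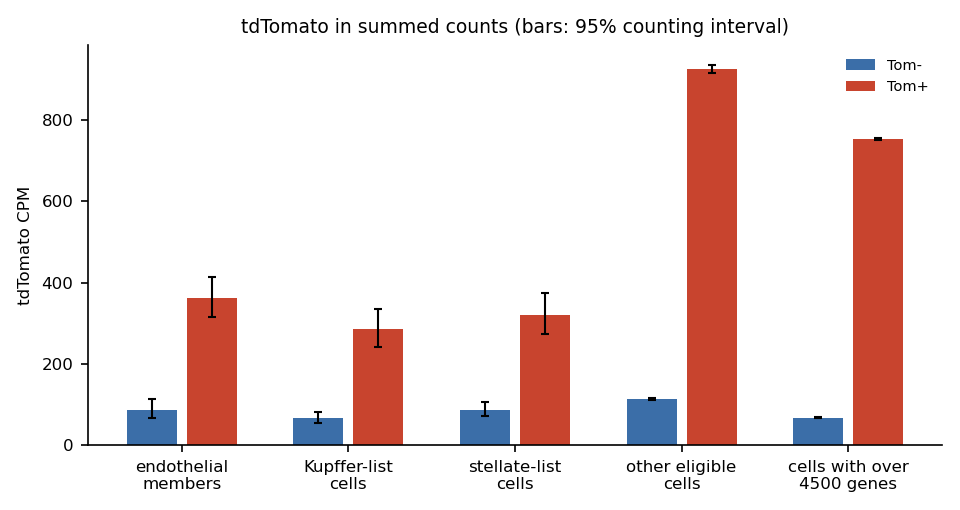
tdTomato level (CPM, from 0) in the summed Tom- (blue) and Tom+ (red) cells of 5 sets, with 95% counting intervals. The endothelial members stand at 87.3 and 362 CPM, close to the cells richest in Kupffer and stellate genes and below the 926 CPM of other eligible Tom+ cells.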

How the data were processed

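Livers of CCl4-treated p16-Tom mice were fixed, dissociated and sorted into 1 Tom- and 1 Tom+ library. The authors hybridised paired probes to the fixed RNA (a commercial mouse probe set with custom probes added) and counted UMIs with Cell Ranger 7.2.0 on mm10, per the labels. The deposited values are raw UMI counts for 19073 features, with 3 custom features. Each gene has its own probes, so levels of different genes were not compared, and reads of near-identical genes can be shared. Library totals of the members were 618468 and 590648 UMIs.

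The members and gene lists were chosen with earlier results of these data known. Counts of the cells of a set were summed by library; CPM carry exact Poisson intervals, shares have exact Clopper-Pearson intervals and ratios between libraries exact conditional ones, all at 95%. Intervals and the floor of 3 counts cover counting error only. Log2 differences of members over other cells carry a pseudocount of 0.5 UMIs. Genes were compared at 10 CPM or more in either sum and 20 UMIs or more over both. Detection shares were taken after thinning each cell to 2000 UMIs. Members were clustered without the 6 ranking genes (1000 variable genes, 15 components, 15 neighbours, Leiden resolution 0.6, seed 0), and tdTomato was among the genes clustered on. A cluster was named only with at least 3 fixed markers higher and 1 among its 10 leading genes.

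Named genes were the ranking genes, the 15 largest and 5 smallest differences and the 5 largest and 5 smallest Tom+ to Tom- ratios at 50 CPM or more, the 5 leading genes of each cluster, tdTomato, Cdkn2a, the custom feature with p16 in its name and the genes of the lists. Of 357 list entries 5 were not among the features and were not analysed here. Doublets were not called or removed; alternatives left out members with the most UMIs or with markers of other cells. With 1 library per group no test was run and no p-value is given. Scripts were tested on simulated data. Python 3.11.15, numpy 2.4.6, scipy 1.17.1, pandas 2.3.3, scanpy 1.11.5, leidenalg 0.10.2 and matplotlib 3.10.9 were used. Promoters were RefSeq windows of 300 bases (GRCm38.p6).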

Additional observations from a re-analysis of the deposited data

Results flagged for a closer look

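A custom probe for the LINE-1 element L1Md_A belongs to none of the gene lists above and gave a signal in the members. It was at 5695 CPM in Tom- and 6195 CPM in Tom+ members, a log2 ratio of 0.12 (0.05 to 0.19), and at 3197 and 3914 CPM in other eligible cells, a ratio of 0.29 (0.28 to 0.30). Its level was higher in members than in other cells in both libraries. The median gene compared was also higher in members (log2 0.55), and the median Tom+ to Tom- log2 ratio in members was 0.07. The ratio between the libraries has no replicate check.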

How the results depend on the processing

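No paired analysis was possible because the design has 1 library a group. Without replicates, the limits here concern counting, depth and the choice of cells. Over the alternatives run, 34 or 35 endothelial genes outside the ranking stood at least 2-fold higher, and the tdTomato ratio lay between 1.98 and 2.32. The makeup of the members depended most on which cells were eligible. With 200 cells the Tom- and Tom+ shares of eligible cells were 0.980% and 3.54%, the part from Tom+ 57.5%, the hepatocyte share of UMIs 10.1% and the clusters 3. With 800 cells these were 5.31%, 10.4%, 42.4% and 13.8%, with 15.1% of members at 5 or more Kupffer UMIs, 7.75% at 5 or more stellate UMIs and 387 genes 2-fold lower. With 2000 to 4500 genes the values were 4.14%, 4.87%, 28.8%, 18.8%, 39.0% and 22.2%, with 2021 genes 2-fold higher and 397 lower in members, 291 genes 2-fold higher in Tom+ members, and Lpcat3 reversed to 0.25. With 1000 to 10000 genes and at most 100000 UMIs the shares were 0.884% and 1.44%. A minimum of 50 CPM gave 1746 genes higher and 535 lower in members and 28 and 26 between the libraries, since fewer genes were compared, and no CPM minimum gave 1307 lower. Leaving out members with a UMI of Ptprc, Clec4f or Dcn gave shares of 1.73% and 4.93%, with 5.86% at 5 or more Kupffer and 0.651% at 5 or more stellate UMIs. Leaving out the 100 members richest in hepatocyte RNA gave 61.7% from Tom+, 1.34% of Tom- cells and a hepatocyte share of 9.74%. Leaving out the 100 members with the most UMIs gave 1.57% and 5.14%, 7.67% at 5 or more Kupffer UMIs, 3 clusters and 11.1%. Ranking without Pecam1, Stab2, Kdr, Ptprb or Egfl7 gave hepatocyte shares of 10.99%, 10.99%, 10.99%, 11.02% and 11.11%, 200 cells from each library 10.90%, a mean over cells 10.997% and thinning to 1000 UMIs 10.96%. A clustering resolution of 0.3 gave 3 groups and 1.0 gave 9. Median-of-ratios scaling lowered all Tom+ to Tom- ratios by 0.04, and leaving hepatocyte genes out of the totals lowered them too (-0.03, log2). Cycling genes depended on few cells: without those 100 members, Top2a, Birc5 and Ube2c were no longer higher in members (-1.47, -0.93 and -2.24). The alternative without the 9 members whose barcode is found in both libraries was chosen after seeing the data. It gave 51.2% from Tom+, 3303 and 831 genes 2-fold higher and lower in members, a tdTomato ratio of 2.06 and 5 clusters. The causes of these changes were not tested.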

Other observations

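In Tom+ members of cluster 3 tdTomato had 2 UMIs (52.0 CPM, 6.30 to 188) from 16 cells, against 342 to 860 CPM in Tom+ members of clusters 0, 1, 2 and 4 and 182 CPM in those of cluster 5. The reporter was among the genes the clusters were made from, so this is a description. In the same cluster the pericentral endothelial list was at 218 CPM (144 to 318), the lowest of the 6 clusters, and Dnase1l3 was at 1278 CPM where the other clusters lay between 1704 and 2567. Its summed sinusoidal list was also low, at 8849 CPM against 12576 in the remaining members, and its hepatocyte share of UMIs was the highest of the 6 clusters, at 13.0%. The part of these in its low endothelial values was not tested.

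Members in the 4 bands of 100 ranks came from Tom+ in 59, 56, 46 and 45 cases, and those at ranks 401 to 500 in 37, while the hepatocyte share of their UMIs went from 9.43% over 10.7%, 11.4% and 11.8% to 13.2%. The ranking itself divides by total UMIs, so a cell with more hepatocyte RNA ranks lower by construction.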
